A study of Homo sapiens with 12 samples.

Results

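The comparison of AGI24512 with its solvent DMSO in the MTAP-WT form of HCT116 rests on 6 of the 12 libraries of the series, chosen by their titles, genotype and treatment labels. All 258 introns (236 gene symbols) and all 99 splicing events in the authors' deposited tables for MTAP-WT were taken, against 1549 introns in the table for MTAP-null. HCT116 is an established human colon cancer cell line, and the labels call both genotypes engineered. The groups were MTAP-WT cells with AGI24512 and MTAP-WT cells with DMSO and, for a comparison of responses, MTAP-null cells with AGI24512 and MTAP-null cells with DMSO, with 3 libraries each. Poly-A enriched RNA was sequenced as paired ends. Neither the dose and duration nor the number of clones behind each form is given in the sources used here. No label states whether replicate libraries are separate cultures. The spread that the p-values use is thus that among libraries, and it may be technical. The tables list only features that passed the authors' test, so the cell type could not be checked in full. Of 8 epithelial markers 1, KRT8, had a listed intron, and of 4 markers of other cell types 0 had one.

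MAT2A makes S-adenosylmethionine, the methyl donor of the cell, from methionine, and the series is titled as a study of a MAT2A inhibitor, with AGI24512 as the compound in these libraries' labels. MTAP breaks down methylthioadenosine, a by-product of polyamine synthesis that inhibits the arginine methyltransferase PRMT5, so MTAP-WT cells clear this inhibitor and MTAP-null cells hold more of it. PRMT5 methylates Sm proteins of the spliceosome, and detained introns are introns that stay in polyadenylated transcripts held in the nucleus. MTAP-WT cells are thus the counterpart in which the same compound acts with the methionine salvage route intact.

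The tables hold listed features only, so the depth of whole libraries is unknown. The AGI24512 libraries held 55911 to 65080 reads in the listed introns, and the DMSO libraries 50919 to 62353. Libraries of a group differed by more than counting noise, with a chi-square per degree of freedom of 1.40 to 4.07 over the pairs, where counting noise alone gives 1. No 2 libraries were therefore treated as the same sample. In bulk RNA, fewer cells with a transcript and less of it per cell cannot be told apart.

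The sequences below belong to members named in the results, some of them with few reads. They were read from GENCODE 29 transcripts (GRCh38) at the positions of the authors' tables. They are a short intron of a ribosomal protein gene, some of the alternative splice sites and 5 of the alternative exons. The intron of RPS27 (chr1:153991035-153991114, plus strand, 80 bases) is shown with its first and last 2 bases in capitals.
RPS27 intron: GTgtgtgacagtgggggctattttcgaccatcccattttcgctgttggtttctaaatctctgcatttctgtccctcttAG
The PRMT5 window (chr14:22929237-22929266, minus strand) spans the inner 5′ splice site, and its capitals start the segment of 85 bases that the longer form keeps.
PRMT5 5′ splice site: tgtggccaagcagggGTGAGGGCCGGACCT
The UFD1L window (chr22:19475470-19475510, minus strand) has in capitals the 26 bases between its 2 alternative 5′ splice sites.
UFD1L 5′ splice sites: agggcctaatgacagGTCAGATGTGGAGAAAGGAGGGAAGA
In 5 genes the 2 alternative 3′ splice sites lie 3 bases apart, and the capitals are those 3 bases, CAG in PER3, DCLK2, GUCD1 and CEACAM19 and TAG in AKAP13 (chr1:7793957-7793980, chr4:150220703-150220726, chr22:24543077-24543100, chr19:44683434-44683457 and chr15:85718010-85718033, on the plus strand except GUCD1).
PER3 3′ splice sites: CAGctgcacggtatgaatgtgctc
DCLK2 3′ splice sites: CAGatttctgctcatggcagatct
GUCD1 3′ splice sites: CAGgaatgtgcagcaccagcatca
CEACAM19 3′ splice sites: CAGgacctgctaaaccccgaccct
AKAP13 3′ splice sites: TAGgtacagacatgaatgaaggac
The exons are 2 of the variable exons of CD44 (chr11:35196746-35196874 and chr11:35201082-35201195, plus strand), an exon of MDM4 (chr1:204537459-204537497, plus strand), an exon of STRADA (chr17:63726638-63726695, minus strand) and an exon of COL13A1 (chr10:69932560-69932604, plus strand).
CD44 longer exon: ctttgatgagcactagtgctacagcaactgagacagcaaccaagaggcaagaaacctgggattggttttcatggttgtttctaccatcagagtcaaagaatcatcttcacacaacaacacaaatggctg
CD44 shorter exon: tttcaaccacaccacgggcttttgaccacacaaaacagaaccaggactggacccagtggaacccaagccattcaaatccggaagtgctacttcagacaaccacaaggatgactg
MDM4 exon: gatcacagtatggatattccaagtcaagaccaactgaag
STRADA exon: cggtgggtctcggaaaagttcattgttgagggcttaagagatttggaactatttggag
COL13A1 exon: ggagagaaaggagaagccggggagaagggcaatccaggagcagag

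With AGI24512, most listed introns had higher usage, and a minority that includes introns of ribosomal protein genes, SBF2 and PDLIM3 had lower usage. The authors' deposited table gave higher usage to 204 introns and lower usage to 54. Usage is DEXSeq's fitted value for an intron, relative to the other features of its gene. It is not a share or percentage, since the listed features of TMEM223 had 80.2 and 38.1 with DMSO. Usage changes are log2 ratios of these fitted values, AGI24512 over DMSO, so their sizes are not changes of a share. The median was 0.50 among the 204 and -0.26 among the 54 in the authors' deposited table. The adjustment of the authors covered 143569 features of all kinds, 0.938% of which reached the rank of the last listed intron. The read count of each intron was then tested with edgeR, and "rose" and "fell" below mean a call of that test at an adjusted p below 0.05. A read count mixes the level of the gene's RNA with the share of the intron.

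Of the 258 introns, 182 rose (70.5%) and 37 fell (14.3%), with a median log2 change of 0.73. Read count and usage went the same way in 179 introns that rose with higher usage and in 37 that fell with lower usage. The read counts of 3 introns with lower usage rose, among them those of MAT2A and RPS14, and 0 introns with higher usage fell. In 179 introns all 3 AGI24512 libraries were above all 3 DMSO libraries (69.4%), in 37 all were below (14.3%), and in 42 the groups overlapped. The authors chose these introns on the same libraries, so these shares only describe the list. The size factors behind all calls, worked back out of the authors' base means, were 0.953 to 1.09. TMM scaling computed on the listed introns themselves moved the median log2 change to 0.16 and gave 60 that rose and 68 that fell. Under it the rises of MAP3K13:E008, CHCHD3, KRT8, CD44, RNF187, CPNE7, SNHG5, CDK13, RBM5, EIF4E, RAB28, both SNED1 introns, PAX8-AS1:E004, SLC38A10:E004 and 3 TM9SF1 introns lost their calls, and those of RPS14, RDX, SNRNP27, MTHFD2L, SLC38A10:E009 and TM9SF1:E002 turned negative.

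**Figure D1:**
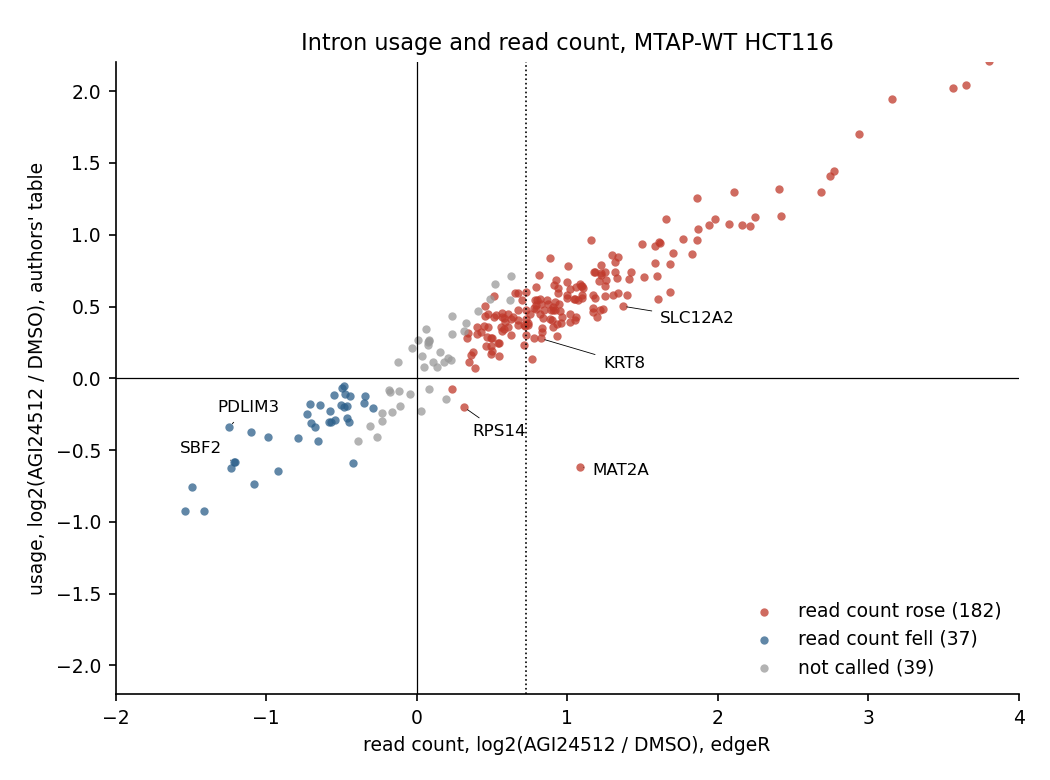
Each point is 1 of the listed introns, with the log2 change of its read count on the x axis and the log2 change of its usage in the authors' deposited table on the y axis, both as AGI24512 over DMSO. The dotted line is the median read change of 0.73, MAT2A stands alone at the lower right, and 6 introns with a usage change beyond 2.2 or a read change above 4 lie outside the axes.

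The introns with lower usage were shorter and more often inside annotated exons than those with higher usage. The median width was 607 bases among the 54 with lower usage, with 31 (57.4%) under 1000 bases, and 2790.5 bases among the 204 with higher usage, with 53 (25.98%) under 1000 bases. Another transcript's exon covered 28 of the 54 in full (51.9%) and 43 of the 204 (21.1%), so reads there can come from an exon of that transcript. An annotated GENCODE 29 intron was matched exactly by 33 of the 54 and by 127 of the 204. Among the matched introns, 6 of the 33 with lower usage lay between exons of the 5′ UTR, as did 2 of the 127 with higher usage. The median of the mean normalised count was 153.55 among the introns with lower usage and 47.6 among those with higher usage, so the width and the depth of these groups differ together. No test was made across introns, and the part of depth in these differences was not tested.

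The 12 largest rises among introns with a mean normalised count of at least 20 and no overlap between groups included introns of UTRN, KIAA1109, TUBGCP6 and MBD1. UTRN, which encodes utrophin, the homologue of dystrophin that links actin to the membrane, had 2 listed introns, and both rose. Its internal intron at chr6:144836542-144839172 had normalised counts of 85.3, 79.7 and 87.1 with AGI24512, against 32.1, 42.6 and 26.04 with DMSO. The groups did not overlap, and the difference was 2.50-fold, with a log2 change of 1.32 ± 0.20 (SE; edgeR adjusted p = 5.15e-09). The other UTRN intron, at chr6:144828856-144835779, averaged 111.4 ± 11.98 with AGI24512 and 49.1 ± 8.59 with DMSO (SD, n = 3 each). Its log2 change of 1.19 was within 1 standard error of that of its neighbour.

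KIAA1109, a very large lipid transfer protein, had 129.8, 105.6 and 110.2 normalised counts with AGI24512 in an internal intron (chr4:122266959-122271017), against 40.4, 40.5 and 59.4 with DMSO. Every AGI24512 library was thus far above every DMSO library, with a log2 change of 1.31 ± 0.18 (SE; edgeR adjusted p = 2.45e-10). TUBGCP6, a subunit of the γ-tubulin ring complex that nucleates microtubules, had the largest rise of this set, 39.9, 18.9 and 34.6 with AGI24512 against 7.34, 11.4 and 10.4 with DMSO. Its fold of 3.2 rests on few reads, and the AGI24512 libraries spread widely. MBD1, which binds methylated CpG sites, had 148.4, 104.6 and 117.5 normalised counts with AGI24512 against 50.5, 45.7 and 50.0 with DMSO. That is 2.54-fold (edgeR adjusted p = 4.86e-11), in a feature that lies in full inside an annotated exon.

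The remaining rises of this set had log2 changes between 1.22 and 1.61 and groups that did not overlap. They were in the non-coding gene LOC401320 (1.61), SLC12A2, the sodium-potassium-chloride cotransporter (1.37), IFT88, a carrier of intraflagellar transport (1.33), PPP2R1B, a scaffold of protein phosphatase 2A (1.26), ARHGAP29, a GTPase-activating protein (1.24), the small GTPase RAB28 (1.23), PAM, which amidates peptides (1.22), and NDUFA5, a subunit of respiratory complex I (1.22). The highest edgeR adjusted p among these 8 was that of RAB28, at 0.000173. The strongest evidence in the authors' deposited table was elsewhere, in the first intron of MAP3K13 (usage log2 0.45, adjusted p = 6.12e-25) and an internal intron of CHCHD3 (usage log2 0.48, adjusted p = 4.55e-22). CHCHD3, a protein of mitochondrial cristae junctions, had 1020.2, 1164 and 1196 normalised counts with AGI24512 against 641.5, 662.5 and 574.9 with DMSO, a 1.80-fold difference (edgeR adjusted p = 4.86e-11).

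**Figure D2:**
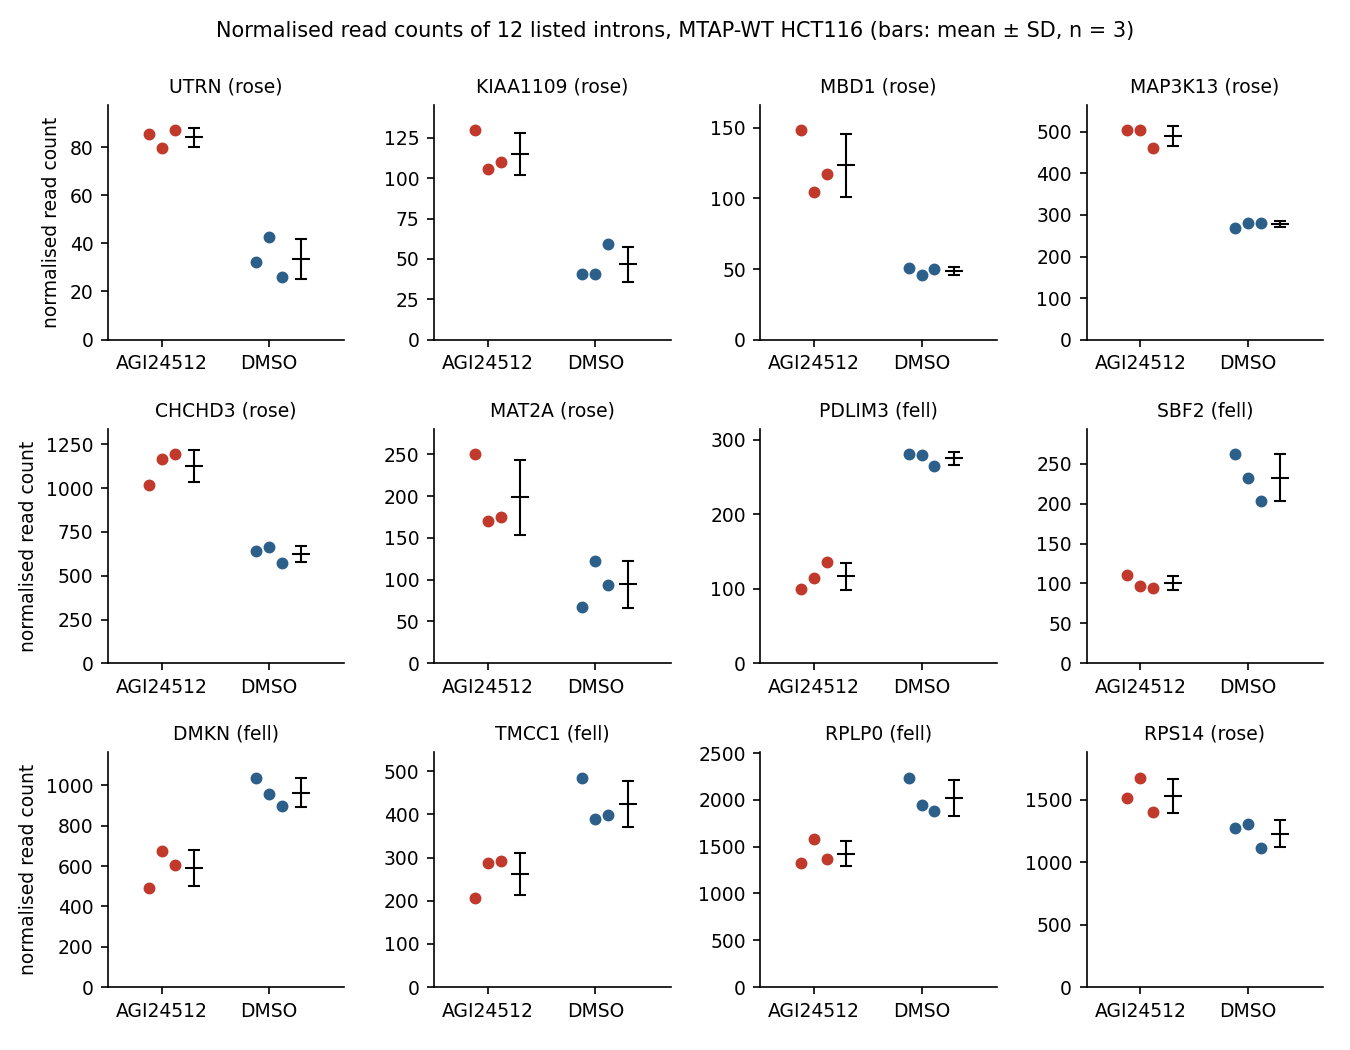
Normalised read counts of 12 introns in each library, with AGI24512 on the left and DMSO on the right of each panel, axes from 0, and the mean ± SD (n = 3) beside the points. The panels show 6 introns that rose with groups apart, 5 of them with higher usage and MAT2A with lower usage, 5 that fell, and RPS14, which rose although its usage was lower.

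Falls were smaller in number. Among introns with a mean normalised count of at least 20 and no overlap between groups, the largest was that of PDLIM3, an actin-associated protein with PDZ and LIM domains. Its internal intron (chr4:185508563-185514269) had 99.2, 114.6 and 135.3 normalised counts with AGI24512, against 280.8, 279.3 and 264.5 with DMSO. Its means were 116.4 ± 18.1 for AGI24512 and 274.9 ± 9.01 for DMSO (SD, n = 3 each), a log2 change of -1.24 ± 0.14 (SE; edgeR adjusted p = 6.69e-14). SBF2, a DENN-domain and phosphatase-like protein of endosomes, fell in 2 neighbouring introns. At chr11:9809003-9812531 the counts were 110.4, 96.7 and 94.4 with AGI24512 against 262.4, 232.6 and 203.1 with DMSO, and at chr11:9808186-9808900 they were 59.4, 58.8 and 77.6 with AGI24512 against 174.4, 136.0 and 139.6 with DMSO. Both had a log2 change of -1.21. The non-coding gene SBF2-AS1 overlaps both on the other strand, and the use of strand in the counting is not given in the sources used here, so reads of the 2 genes cannot be told apart.

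The other 9 falls of this set had log2 changes between -1.23 and -0.68. They were in HDLBP, the RNA-binding protein vigilin (-1.23), ZBTB38, a zinc-finger protein that binds methylated DNA (-1.10), NBPF12 (-1.08), NCOA4, the receptor that takes ferritin to autophagy (-0.92), SCAF11, an SR-related splicing factor (-0.79), RCCD1 (-0.73), DMKN, a secreted epithelial protein (-0.71), TMCC1, a membrane protein of the endoplasmic reticulum (-0.70), and ZNF286A (-0.68). The highest edgeR adjusted p among these 9 was 0.00165, for NCOA4. The features of ZBTB38, RCCD1 and DMKN lie in full inside annotated exons. NBPF12 belongs to a family of near-identical copies, so its reads could have been split among them.

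In MAT2A, the target of the compound, the read count of the listed intron rose while its usage was lower, as in RPS14 but with a larger change of each. In human cells the last intron of MAT2A is known to be spliced out more when S-adenosylmethionine is low, through the RNA methyltransferase METTL16. That last intron (chr2:85543035-85543669, between coding exons) had 250.4, 170.4 and 175.2 normalised counts with AGI24512, against 67.0, 122.5 and 93.7 with DMSO. The groups did not overlap, and the difference was 2.10-fold, a log2 change of 1.08 ± 0.16 (SE; edgeR adjusted p = 8.56e-10). Its usage had a log2 change of -0.62 (adjusted p = 0.000137) in the authors' deposited table, which is relative to the other features of the gene. The same intron in MTAP-null cells averaged 282.7 ± 45.1 with AGI24512 and 126.7 ± 11.6 with DMSO (SD, n = 3 each), and its usage there was -0.55 in the authors' deposited table. The response in MTAP-WT minus that in MTAP-null was -0.07 ± 0.27 on the log2 scale (SE; edgeR adjusted p = 0.916), a standard error that leaves room for a difference of either sign. No feature of MTAP was listed for MTAP-WT. MTHFD2L, a mitochondrial folate enzyme and the other listed member of the methionine, folate and polyamine genes, rose to 70.3 ± 4.07 with AGI24512, against 47.5 ± 8.41 with DMSO (SD, n = 3 each; edgeR adjusted p = 0.00517).

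Cytosolic ribosomal protein genes were the list that stood lowest among those with more than 2 introns. All 9 introns of its 7 genes had lower usage in the authors' deposited table, and 2 rose, 3 fell and 4 did not pass edgeR, with a median log2 change of 0.03 beside 0.73 over all listed introns. With TMM scaling 0 rose and 8 fell. RPLP0, the stalk protein of the large subunit, had 1327, 1579.5 and 1365 normalised counts with AGI24512 in an intron of its 5′ UTR (chr12:120200151-120200729), against 2238, 1939.8 and 1877 with DMSO. With groups apart, its log2 change was -0.50, a fall at an edgeR adjusted p of 3.06e-05.

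The RPS27 intron printed above averaged 69.9 ± 14.99 with AGI24512 and 93.5 ± 13.5 with DMSO (SD, n = 3 each), and the groups overlapped. Its log2 change of -0.42 (edgeR adjusted p = 0.0212) was no longer called when AGI24512 replicate 1 (-0.27) or 3 (-0.43) or DMSO replicate 2 (-0.33) was left out. RPS14 had 1512, 1676 and 1399.5 normalised counts with AGI24512 against 1269, 1306 and 1109 with DMSO, and rose 1.25-fold (edgeR adjusted p = 0.00609), a call lost without AGI24512 replicate 2 (log2 0.25, adjusted p = 0.0801) or DMSO replicate 3 (log2 0.25, adjusted p = 0.0506). The 3 RPL15 introns and the RPL41 intron had log2 changes of -0.39 to 0.20 and no call. All 9 features lie in full inside annotated exons, and NKIRAS1 overlaps those of RPL15 on the other strand.

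The most abundant listed introns mostly changed little in read count. SET, a histone chaperone, had 3289 ± 232 normalised counts with AGI24512 and 3727 ± 243 with DMSO (SD, n = 3 each) and no call (log2 -0.18, edgeR adjusted p = 0.111). Without AGI24512 replicate 1 the SET change of -0.24 passed (adjusted p = 0.0291). H2AFV, a histone H2A variant, averaged 2778 ± 412 with AGI24512 and 2684 ± 77.5 with DMSO and had a log2 change of 0.05 without a call. RDX, radixin, which ties actin to the membrane, had 2980.0, 2671 and 2511 normalised counts with AGI24512 against 2050.1, 2031 and 2167 with DMSO, and rose 1.31-fold (edgeR adjusted p = 0.000833). The feature of TMEM223, a mitochondrial membrane protein, at chr11:62774666-62790314 fell to 1997 ± 271 with AGI24512, against 2920.0 ± 401 with DMSO, while its neighbour had a log2 change of 0.04 without a call. The genes TAF6L and TMEM179B overlap the first of these on the other strand.

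Genes of other functions were measured by a few introns each, so their counts are given against the 70.5% of all listed introns that rose. All 8 introns of cytoskeleton and adhesion genes rose, among them TUBGCP6, UTRN, RDX and KRT8, with a median log2 change of 0.91 (with TMM scaling 3 rose). Mitochondrial genes had 7 of 8 introns that rose, led by NDUFA5, and MRPL55, a mitochondrial ribosomal protein, had a log2 change of -0.16 without a call (with TMM scaling 1 rose and 1 fell). Of 9 introns of ubiquitin system genes 8 rose, and the intron of PSMA1, a proteasome subunit, had a log2 change of -0.23 without a call (with TMM scaling 1 rose and 1 fell). NEDD4, a ubiquitin ligase, had the largest change of that list, 20.4, 17.9 and 21.0 normalised counts with AGI24512 against 0, 5.19 and 8.33 with DMSO. Its log2 change of 2.16 was 1.53 without DMSO replicate 1 and 2.96 without DMSO replicate 3. Of 8 introns of solute carrier genes 6 rose, and 2 of SLC38A10 did not pass (with TMM scaling 2 rose and 1 fell).

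Small GTPases and their regulators had 3 introns that rose and the 2 of SBF2 that fell (with TMM scaling 1 rose and 2 fell). Chromatin genes had 3 that rose, 1 that fell and 1 without a call, and zinc-finger genes 3 that rose and 1 that fell (with TMM scaling 2 rose and 2 fell among chromatin genes, and 2 rose and 1 fell among zinc-finger genes). Of 8 introns of long non-coding and antisense genes 6 rose and 2 did not pass (with TMM scaling 1 rose and 2 fell). Few introns of the splicing machinery were listed. SNRPE, an Sm protein of the core snRNPs, fell to 74.98 ± 8.81 with AGI24512, against 102.5 ± 6.91 with DMSO (SD, n = 3 each; edgeR adjusted p = 0.0118), a call lost without AGI24512 replicate 3 (-0.37) or DMSO replicate 3 (-0.40). SNRNP27, of the U4/U6.U5 snRNP, rose to 403.9 ± 26.3 with AGI24512, against 311.3 ± 18.2 with DMSO (edgeR adjusted p = 0.00408). RBM5, a splicing regulator, and CDK13, a kinase of RNA polymerase II, rose by log2 changes of 0.91 and 0.67. SNHG5, a host of small nucleolar RNAs, and EIF4E, the cap-binding translation factor, rose by log2 changes of 0.72 and 0.89. No member of the lists of arginine methyltransferases and their partners or of p53 and apoptosis genes had a listed intron.

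**Figure D3:**
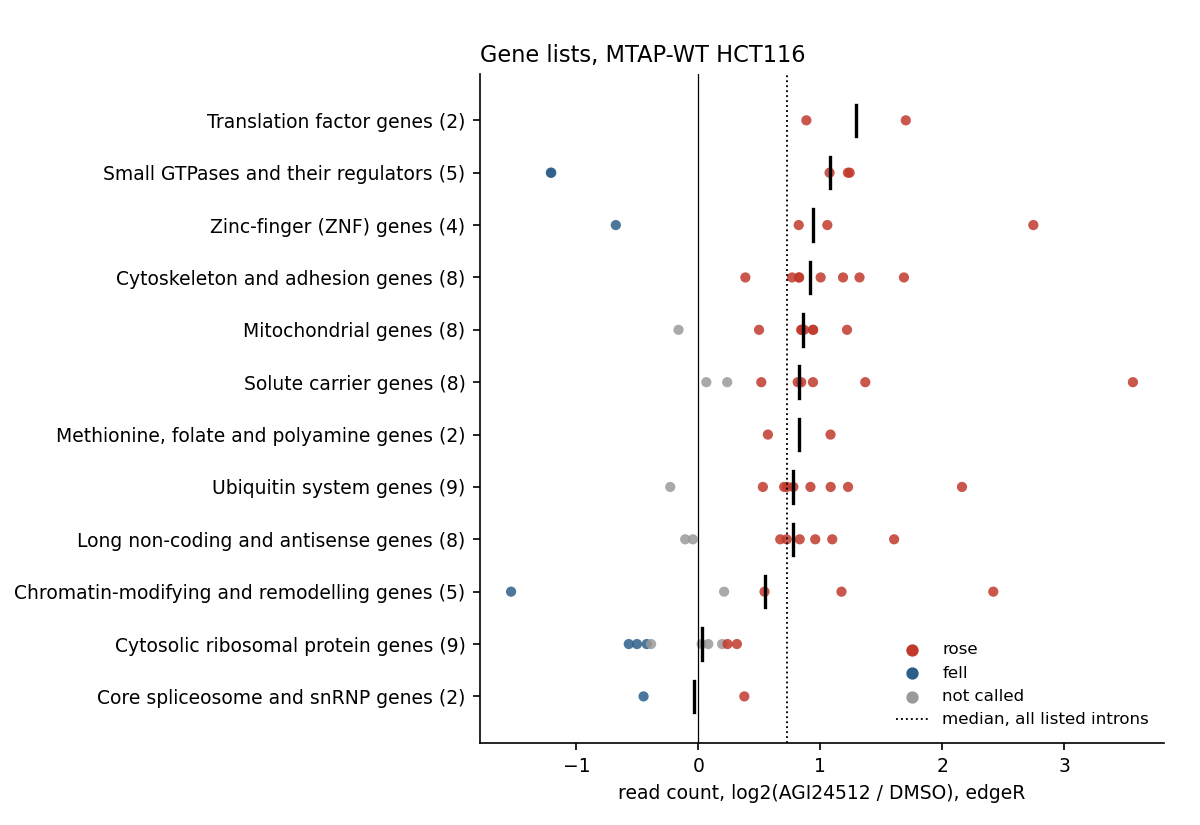
The log2 change of the read count, AGI24512 over DMSO, for each intron of the gene lists with at least 2 introns (number in brackets), coloured by the edgeR call. Black ticks are list medians, and the dotted line is the median of 0.73 over all listed introns. Ribosomal protein genes sit around 0, with a median of 0.03, while all 8 introns of cytoskeleton and adhesion genes lie to the right of 0.

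In 17 genes more than 1 intron was listed, 39 introns in all. All listed introns rose in 9 of these genes, all fell in SBF2, and in MAP3K13 1 rose and 1 fell. Introns of 1 gene share its RNA level and are not replicates. MAP3K13, a kinase upstream of JNK, had 503.6, 504.2 and 461.6 normalised counts with AGI24512 in its first intron (chr3:185363369-185428496), against 268.9, 281.4 and 281.2 with DMSO, and rose 1.77-fold (edgeR adjusted p = 4.04e-09). Its other feature, at chr3:185291761-185293079 inside an annotated exon, had 826.4, 852.0 and 867.6 normalised counts with AGI24512 against 1210.4, 1089 and 925.8 with DMSO, and fell (log2 change -0.34, edgeR adjusted p = 0.00369). Within this gene the 2 features thus moved in opposite directions with no overlap between groups in either.

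TM9SF1, a membrane protein of endosomes, had 4 listed introns, all of which rose by log2 changes between 0.40 and 0.78. The strongest, at chr14:24192357-24192598, had 100.2, 103.6 and 106.0 normalised counts with AGI24512 against 62.4, 59.2 and 58.3 with DMSO (edgeR adjusted p = 5.46e-05). The weakest, TM9SF1:E002 (adjusted p = 0.0373), did not keep its call when AGI24512 replicate 2 or 3 or DMSO replicate 1 or 3 was left out, with log2 changes of 0.39, 0.38, 0.33 and 0.41. SLC38A10, an amino acid transporter family member, had 4 listed introns, with log2 changes of 0.81, 0.52, 0.24 and 0.07. The first 2 of these rose, at edgeR adjusted p = 7.42e-07 and 0.00329, and the other 2 did not pass. In SNED1, a secreted matrix protein, both introns rose, by 0.79 and 0.80, although the libraries of 1 of them overlapped.

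**Figure D4:**
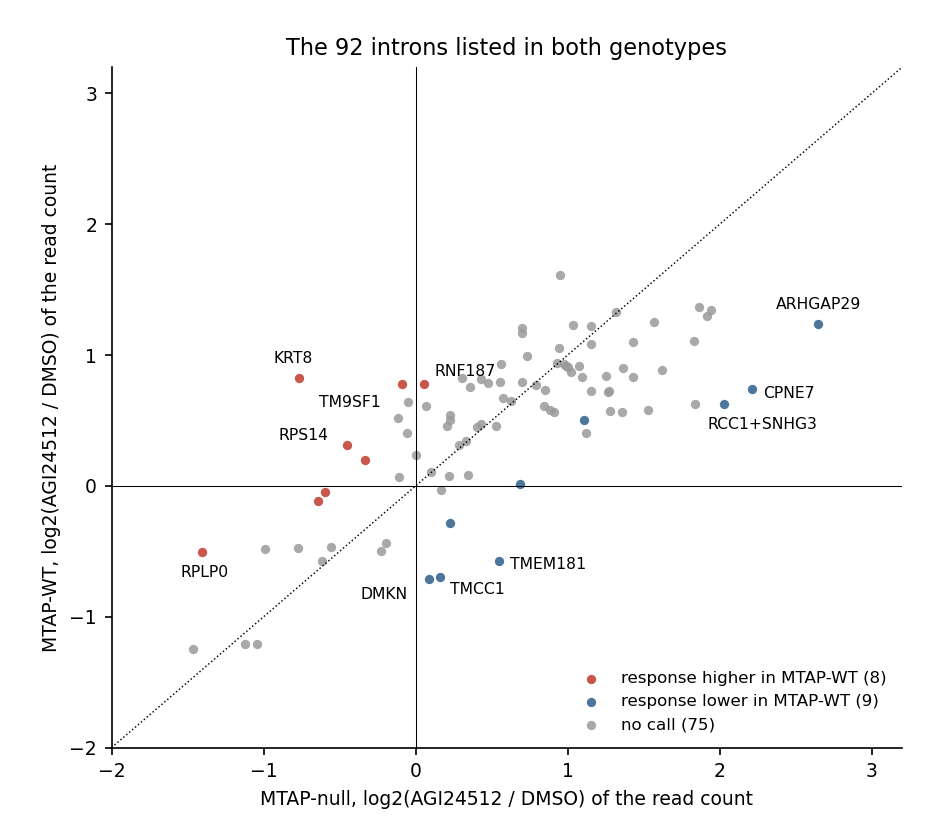
Each point is an intron listed in both genotypes, with the log2 change of its read count (AGI24512 over DMSO) in MTAP-WT on the y axis and in MTAP-null on the x axis. The dotted line marks equal responses, and colours mark the 8 introns called higher and the 9 called lower in MTAP-WT. KRT8 lies farthest above the line and CPNE7, ARHGAP29 and RCC1+SNHG3 farthest below it.

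The same compound was given to MTAP-null cells, and 92 introns were listed in both genotypes, 35.7% of the MTAP-WT list and 5.94% of the MTAP-null list. In 86 of them usage moved in 1 direction in both genotypes of the authors' deposited tables, 71 higher and 15 lower, and in 6 it moved in opposite directions. The usage change was the larger in MTAP-WT in 26 of those 86, on the scale of the fitted values and not of shares. Read counts were fitted in 1 edgeR model with a drug-by-genotype term. The median of the response in MTAP-WT minus that in MTAP-null was -0.03 on the log2 scale, with quartiles of -0.44 and 0.28. Of the 92 introns, 8 responded higher in MTAP-WT (8.7%) and 9 lower (9.78%). A missed call here does not show that the responses were alike. The 92 introns had passed the authors' test in both genotypes. Their shared directions and this median thus only describe the shared list, and not the other introns of either genotype.

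KRT8, a keratin of simple epithelia, had the largest difference in favour of MTAP-WT. The first intron of KRT8, which lies inside an annotated exon and is overlapped by KRT18 on the other strand, had 227.2, 240.2 and 234.0 normalised counts with AGI24512 in MTAP-WT cells, against 141.3, 119.4 and 134.3 with DMSO. In MTAP-null cells KRT8 had 112.1, 73.7 and 101.6 with AGI24512, against 147.7, 169.0 and 178.1 with DMSO. The directions were opposite, with groups apart in both genotypes, and the response in MTAP-WT minus that in MTAP-null was 1.59 ± 0.20 (SE; edgeR adjusted p = 1.39e-05). The read counts of TM9SF1:E008 (0.87), RNF187 (0.72), RPS14 (0.77) and RPLP0 (0.90) also responded higher in MTAP-WT. In the authors' deposited tables the usage change was 0.49 in MTAP-WT and 0.32 in MTAP-null for TM9SF1:E008. For RPLP0 it was -0.18 in MTAP-WT and -0.38 in MTAP-null. The usage change was instead lower in MTAP-WT for RNF187 (0.28, against 0.41 in MTAP-null) and RPS14 (-0.20, against -0.14 in MTAP-null). RPLP0 stood at 0.706 of its DMSO count in MTAP-WT and at 0.377 in MTAP-null. With TMM scaling on the shared introns, RPL15:E004 (0.48) and IAH1 (0.47) lost their calls.

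ARHGAP29 and CPNE7, a copine that binds membranes with calcium, rose less in MTAP-WT than in MTAP-null. ARHGAP29 had 437.8, 430.5 and 542.4 normalised counts with AGI24512 in MTAP-WT cells against 167.0, 235.7 and 194.8 with DMSO, and in MTAP-null cells 582.0, 587.4 and 724.1 with AGI24512 against 108.4, 102.0 and 90.8 with DMSO. Its DMSO libraries were thus higher in MTAP-WT than in MTAP-null, with normalisation done separately in each genotype. The folds were 2.36 in MTAP-WT and 6.29 in MTAP-null, and the difference of the log2 changes was -1.40 ± 0.20 (SE; edgeR adjusted p = 3.45e-05). CPNE7 rose 1.66-fold in MTAP-WT and 4.57-fold in MTAP-null, a difference of -1.48 ± 0.31 (SE; edgeR adjusted p = 0.00182). The feature shared by RCC1 and SNHG3 had folds of 1.54 in MTAP-WT and 4.08 in MTAP-null.

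For TMEM181, DMKN, TMCC1 and ASPH usage was lower with AGI24512 in MTAP-WT and higher in MTAP-null in the authors' deposited tables. TMEM181, a membrane protein, had 462.8, 435.5 and 501.5 normalised counts with AGI24512 in an internal intron (chr6:158608751-158623549) of MTAP-WT cells, against 605.7, 778.8 and 701.9 with DMSO. In MTAP-null cells it had 307.7, 341.3 and 438.9 with AGI24512 against 239.4, 236.1 and 268.9 with DMSO, and the difference between the responses was -1.13 ± 0.18 (SE; edgeR adjusted p = 9.85e-05). The AGI24512 libraries were all below the DMSO libraries in MTAP-WT and all above them in MTAP-null. For DMKN and TMCC1 the differences were -0.80 and -0.86. The falls of PDLIM3 and of both SBF2 introns in MTAP-WT had no call for a difference between genotypes, with differences of 0.22 ± 0.19 for PDLIM3 and -0.09 ± 0.20 and -0.16 ± 0.23 for the 2 SBF2 introns (SE).

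The 99 splicing events of MTAP-WT came from rMATS, which estimates the inclusion level, the share of transcripts that keep a segment. They comprised 61 skipped exons, 0.101% of 60354 tested, 14 alternative 5′ splice sites (0.422% of 3315), 10 retained introns (0.798% of 1253), 9 alternative 3′ splice sites (0.194% of 4646) and 5 mutually exclusive exons (0.0306% of 16353). In the authors' deposited tables the levels stand under 2 sample sets of 3 libraries, whose treatments are not named there, and differences are set 1 minus set 2. The reads of a CD44 exon, given below, point to set 1 as AGI24512 for skipped exons. Only 46 events, in 26 genes, had at least 20 reads in every library. The median absolute difference was 0.176 among those and 0.565 among the 53 with fewer reads in some library. The FDR values below are those of the authors' deposited tables, and no event was tested anew.

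CD44, the hyaluronan receptor, whose variable exons change the extracellular stem, held 16 of the 61 skipped-exon events. They used 6 exon ends in different combinations with neighbouring exons, so they share reads and are not independent. In all 16 the inclusion level was higher in set 1, by 0.119 to 0.252 in the authors' deposited tables, with 161 to 3129 reads per library. The shorter exon printed above had levels of 0.408, 0.380 and 0.341 in set 1 and 0.173, 0.177 and 0.170 in set 2 of the authors' deposited tables when measured against the exon at chr11:35189835-35190065 and the one from 35208105. The sets did not overlap. The longer exon had levels of 0.387, 0.332 and 0.318 in set 1 and 0.156, 0.192 and 0.173 in set 2 of those deposited tables. Of the 16 events, 12 were also listed for MTAP-null, with the same sign.

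The longer CD44 exon printed above is also a listed feature of the intron table, although it is an exon of annotated transcripts. There it had 592.7, 535.1 and 527.7 normalised counts with AGI24512, against 311.1, 331.3 and 330.1 with DMSO. Its rMATS inclusion reads, against the exon from 35208105, were 476, 407 and 371 in set 1 and 266, 257 and 223 in set 2. The labelled counts of this exon thus point to set 1 as AGI24512 and set 2 as DMSO. No label states it, so directions are kept as set 1 minus set 2. The read count of this feature rose 1.7-fold with groups apart (edgeR adjusted p = 1.78e-08), and its usage was 0.14 higher on the log2 scale in the authors' deposited table (adjusted p = 0.0112). In MTAP-null cells it averaged 1322 ± 67.5 with AGI24512 and 764.9 ± 6.94 with DMSO (SD, n = 3 each). The difference between the 2 responses was -0.02 ± 0.12 (SE; edgeR adjusted p = 0.939).

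PRMT5, the arginine methyltransferase itself, had the alternative 5′ splice site with the lowest FDR among those with at least 20 reads. The longer form, which keeps 85 more bases, had levels of 0.795, 0.790 and 0.701 in set 1 and 0.397, 0.439 and 0.485 in set 2 of the authors' deposited table, with 126 to 178 reads per library. The sets were well apart, by 0.322 at an FDR of 5.76e-07. In GENCODE 29 the start codon of the 3 protein-coding transcripts of the longer form lies inside those 85 bases (chr14:22929223-22929225), while the 7 protein-coding transcripts of the shorter form start upstream (chr14:22929359-22929361). This event was not among those listed for MTAP-null. UFD1L, a cofactor of the segregase VCP, had levels of 0.970, 0.932 and 0.954 in set 1 and 0.884, 0.853 and 0.829 in set 2 for the 26-base segment printed above, per the authors' deposited table. With 693 to 937 reads per library, this small difference of 0.097 kept the sets apart, and it was 0.108 in the authors' deposited table for MTAP-null. VPS52, a subunit of a Golgi tethering complex, differed by 0.236 with 128 to 195 reads per library, and C1orf86 by -0.646 with 30 to 50 reads, in the authors' deposited table. Only 0 to 11 of these reads per library in VPS52 and 0 to 8 in C1orf86 came from the shorter form.

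Outside CD44, exons that were included more in set 1 included those of MDM4, C11orf30 and NDUFV3. MDM4, a p53 inhibitor, had levels of 1, 0.898 and 0.959 in set 1 and 0.748, 0.660 and 0.520 in set 2 of the authors' deposited table for the exon of 39 bases printed above. Only 26 to 38 reads per library stand behind these levels. C11orf30, the chromatin regulator also called EMSY, had a 42-base exon with a difference of 0.380 on 20 to 34 reads per library in the authors' deposited table. NDUFV3, a complex I subunit with an alternative exon of 1095 bases, had levels of 0.515, 0.474 and 0.445 in set 1 and 0.292, 0.293 and 0.319 in set 2 of the authors' deposited table, on 1521 to 1960 reads per library. It is the best covered of these 3.

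Exons that were included more in set 2 included those of STRADA, LRR1, COL13A1, LRIF1 and AUH. STRADA, the pseudokinase that activates LKB1, had levels of 0.248, 0.423 and 0.331 in set 1 and 0.565, 0.658 and 0.718 in set 2 of the authors' deposited table for its exon of 58 bases, a length that is not a multiple of 3. LRIF1, a nuclear receptor-interacting factor, had an exon of 1528 bases with levels of 0.112, 0.165 and 0.165 in set 1 and 0.307, 0.359 and 0.367 in set 2 of the authors' deposited table (FDR = 1.1e-09). For LRR1, a receptor of a cullin ubiquitin ligase, the difference was -0.242, for the collagen gene COL13A1 -0.212 and for AUH, an enzyme of leucine breakdown, -0.182 in the authors' deposited table. LSM14B, an RNA-binding protein, had the same 117-base exon listed as a skipped exon (-0.162) and in 2 mutually exclusive pairs (-0.177 and -0.139), which share reads. ARNTL, UPP1, ZFAS1 and FAM211A-AS1, named here after their values were seen, had differences of -0.153, -0.123, -0.128 and -0.137 in the authors' deposited table, the last on 35395 to 50365 reads per library.

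Of the 9 alternative 3′ splice sites, 5 were pairs of sites 3 bases apart. In AKAP13, an anchor of protein kinase A, the longer form had levels of 0.031, 0.026 and 0 in set 1 and 0.142, 0.317 and 0.230 in set 2 of the authors' deposited table, on 31 to 41 reads per library. The other 4 pairs had fewer than 20 reads in some library. The longer form was lower in set 1 in AKAP13, DCLK2, GUCD1 and CEACAM19, and higher in set 1 in PER3, by 0.474 in the authors' deposited table on 6 to 11 reads. Retained introns with at least 20 reads were those of KIF18B, a mitotic kinesin (-0.151), TMEM41B, a lipid scramblase (0.147 on 2173 to 2853 reads) and LOC100129917 (-0.32 on 23 to 88 reads) in the authors' deposited table. Few of these reads came from the spliced form, on which the levels also rest. For TMEM41B they were 3, 4 and 16 in set 1 and 44, 24 and 20 in set 2. Per library they were 0 to 12 for KIF18B and 0 to 8 for LOC100129917.

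Genes in both kinds of table were CD44 and SNED1. SNED1 had a skipped exon that begins where its listed intron at chr2:241053327-241062790 ends, with levels of 0.751, 0.420 and 1 in set 1 and 0.061, 0.102 and 0.119 in set 2 of the authors' deposited table. With 5 to 23 reads per library, the levels in set 1 spread over most of the scale. MAT1A, the liver form of methionine adenosyltransferase, named here after its values were seen, had an exon with levels of 1, 1 and 0.935 in set 1 and 0.722, 0.581 and 0.733 in set 2 of the authors' deposited table on 9 to 34 reads. Of the 99 events, 17 were also listed for MTAP-null and 16 of these had the same sign. The exception was a retained intron of MROH1, at -0.554 in MTAP-WT and 0.412 in MTAP-null in the authors' deposited tables, on 6 to 14 reads per MTAP-WT library.

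**Figure D5:**
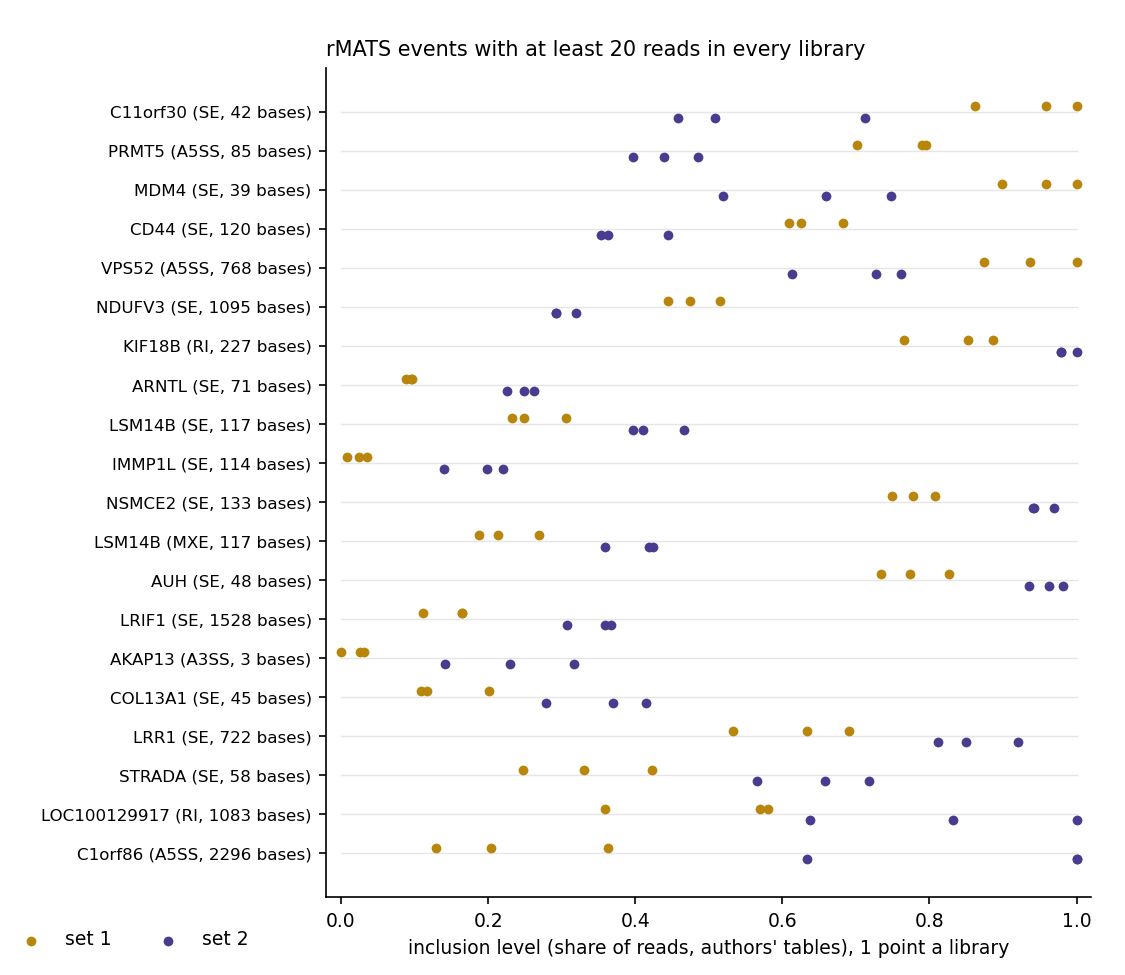
Inclusion levels in the authors' deposited tables for each library of set 1 and set 2, for the 20 events with the largest absolute difference, 1 per gene and event type, among those with at least 20 reads in every library. The sets do not overlap in any of them, with PRMT5 between 0.701 and 0.795 in set 1 and between 0.397 and 0.485 in set 2.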

How the data were processed

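Tables of the authors' comparisons of 12 libraries in 4 groups of 3 were analysed. Neither aligner nor genome build nor any upstream version is given in the sources used here. The deposited raw read counts per intron come from a DEXSeq table, per the file headers. The deposited base mean is a signal, the average of size-factor-scaled counts, per the file headers, and served to recover the factors. The authors' score per group is DEXSeq's fitted usage, and the deposited log2 fold of usage was turned to AGI24512 over DMSO. The authors' p-value and FDR accompany each feature. The authors' inclusion level is a fraction from rMATS, and the read counts behind it were recovered by matching levels within 0.0006.

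Counts were tested with edgeR 4.0.16 (quasi-likelihood, R 4.3.3) over all 258 introns, or the 92 shared ones in a drug-by-genotype model, with Benjamini-Hochberg adjustment at 0.05. Normalised counts are counts over size factors. The test was checked on simulated counts. DESeq2 1.42.0, other scalings and left-out libraries were alternatives. The number of features in the authors' adjustment was worked out from p and adjusted p. Coordinates were compared with GENCODE 29. Introns named are the 12 largest rises and 12 largest falls with a mean normalised count of at least 20 and no overlap, the 8 most abundant, examples of lists, genes with several introns, MAT2A, MTAP, and calls of the drug-by-genotype term. The members and lists were chosen with earlier results of these data known. Introns with the symbols of more than 1 gene (15) were kept out of lists. Reads shared with paralogues or pseudogenes were not resolved. Some introns that this rule names are not reported here.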

Additional observations from a re-analysis of the deposited data

Results flagged for a closer look

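The response of the read count to AGI24512 differed between MTAP-WT and MTAP-null in 17 of 92 shared introns, by the drug-by-genotype term of edgeR. Values are the log2 change of the read count in MTAP-WT minus that in MTAP-null. The response was higher in MTAP-WT for KRT8 (1.59), RPLP0 (0.90), TM9SF1:E008 (0.87), RPS14 (0.77), RNF187 (0.72), PAX8-AS1:E014 (0.55), RPL15:E004 (0.53) and IAH1 (0.52), an esterase. It was lower in MTAP-WT for CPNE7 (-1.48), ARHGAP29 (-1.40), RCC1+SNHG3 (-1.40), TMEM181 (-1.13), TMCC1 (-0.86), DMKN (-0.80), GALNT18:E007 (-0.68), ESPN (-0.61) and ASPH (-0.51). GALNT18 adds sugars to proteins, ESPN bundles actin and ASPH hydroxylates aspartate and asparagine. For RNF187, RPS14 and RPL15:E004 the usage change in the authors' deposited tables was instead lower in MTAP-WT than in MTAP-null. The groups of 3 libraries were too small to look for single outlying libraries. GALNT18:E007 was not called when AGI24512 replicate 1 (-0.61) or 3 (-0.68) or DMSO replicate 3 (-0.58) of MTAP-WT was left out. All 17 kept their direction in the 10 alternatives run, none of which left out an MTAP-null library.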

How the results depend on the processing

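Scaling moved the counts most. TMM factors computed on the listed introns gave 60 that rose and 68 that fell, and DESeq2's size factors 60 and 67, against 182 and 37 with the authors' factors, and the median log2 change was 0.16 and 0.14 in place of 0.73. These factors assume that most listed introns do not change. The cause was not tested. The log2 change then turned negative, with TMM and with DESeq2's factors in turn, for SLC38A10:E009 (-0.055, -0.073), SLC38A10:E006 (-0.33, -0.35), SLC38A10:E007 (-0.50, -0.52), RPS14 (-0.25, -0.27), RPL41 (-0.49, -0.51), RPL15:E004 (-0.38, -0.40), RPL15:E005 (-0.55, -0.57), TMEM223:E002 (-0.53, -0.56), SNRNP27 (-0.20, -0.21), RDX (-0.19, -0.21), H2AFV (-0.53, -0.55), MTHFD2L (-0.0013, -0.019) and TM9SF1:E002 (-0.17, -0.19).

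With 1 MTAP-WT library left out in turn, 169 to 180 introns rose, 34 to 39 fell and 16 to 20 differed between genotypes. No MTAP-null library was left out. The 5 small changes without a call turned sign, over ranges of -0.048 to 0.14 (TMEM223:E002), -0.079 to 0.12 (H2AFV), -0.12 to 0.030 (PAX8-AS1:E014), -0.069 to 0.091 (RPL15:E005) and -0.18 to 0.26 (SLC38A10:E007). DESeq2's Wald test gave 174 rises and 36 falls, and a mean count of at least 20 left 122 and 33. Correlations were -0.097, 0.052 and 0.064 between same-numbered libraries and ran from -0.160 to 0.109 between differently numbered ones. No pairing by replicate number was seen, but these values, on deviations from means of 3 libraries, could not decide it. The fit with the replicate number as a block gave 178 rises, 37 falls and 17 differences between genotypes, 15 of them among the 17 called without it. PAX8-AS1:E014 and GALNT18:E007 lost their calls under the block (0.54 and -0.67, edgeR adjusted p = 0.0525 each). At an authors' adjusted p below 0.01, 35 of the 54 introns with lower usage and 92 of the 204 with higher usage were left. Of the 99 splicing events, 55 had an FDR below 0.01, 46 had 20 reads in every library and 26 met both. Introns with few reads and splicing events with under 20 reads are limited by depth, and adjusted p-values over a list chosen on these libraries are too favourable.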

Other observations

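Of the 258 introns, 66 had a mean normalised count under 20, 62 of them with higher usage and 4 with lower usage in the authors' deposited table. In 10 introns the DMSO libraries held at most 3 reads together, among them FAM221A, LYSMD4 and RADIL with 0, so no fold is given for these. The mean normalised count ran from 1.69 to 3839 over the list, and widths from 6 to 65128 bases.

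The list drew on 2 catalogues of detained introns, per the feature names. Of the introns with lower usage 19 (35.2%) and of those with higher usage 73 (35.8%) were also listed for MTAP-null.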
